A study of Mus musculus with 22 samples.

Results

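Apoe and its clustered neighbours Apoc1, Apoc4 and Apoc2 encode apolipoproteins, the proteins that coat lipid particles. They were picked by name, without use of their values, and are 4 of 35596 annotated genes and 20 of 116072 matched transcripts in bulk RNA-seq libraries of retinal microglia, the resident macrophages of the retina. The study had 22 libraries in 4 groups. These were phagocytic Apoe -/- cells (n = 6), non-phagocytic Apoe -/- cells (n = 6), phagocytic wild-type cells (n = 5) and non-phagocytic wild-type cells (n = 5). Apoe -/- mice carried the strain label Apoe KO, with no allele named, and wild-type mice were C57BL/6. Mice of both genotypes were 12 weeks old, and all of them, the wild type included, had received apoptotic neurons in the vitreous of the eye, so no group was uninjected. The sort took CD11b+, Ly6c-, Fcrls+ cells 24 hours later, and those carrying Alexa488 formed the phagocytic fraction. Each library pooled 5 to 6 retinas by sex and genotype, and the sex of a pool is not given in the labels. Summed Ddx3y and Eif2s3y reads, which come from the Y chromosome, were at most 4.46 in wild-type pool 5 and Apoe -/- pools 4 to 6. All other pools had at least 51.6 in both fractions. Read this way, the former were female and the latter male, so the sexes were unevenly split between the genotypes. The part of sex in the genotype differences below was not tested. Nothing in the labels says that pools of the same number in the 2 fractions came from the same mice, so p-values measure the spread between pools.

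Apolipoprotein E carries cholesterol and phospholipid between cells and is bound by receptors of the LDL receptor family. In the brain and retina glia make it, and microglia that have taken up dying neurons are known for raising it. Apolipoprotein C-II activates lipoprotein lipase, apolipoprotein C-I slows the uptake of lipid particles, and apolipoprotein C-IV is a minor particle protein made mainly in liver. In macrophages the cluster is a known target of the sterol receptors LXR.

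Libraries held 1131240 to 3643670 estimated reads, of which predicted genes made of satellite repeats took 9.13% to 51.7%, most in Apoe -/- non-phagocytic libraries 2 and 5. All 10 microglial markers on the list had reads in each of the 22 libraries, with a summed level of 5460 to 18923 CPM. CPM is counts per 1e6 reads after TMM scaling. Rod markers summed to 930 to 6862 CPM. Of cells that are other sources of Apoe, Mueller glia markers summed to 61.8 to 222 CPM with 4 to 8 of 9 genes detected, astrocyte markers to 11.6 to 77.0 CPM with 3 to 5 of 5, and pigment epithelium markers to 4.96 to 43.7 CPM with 1 to 5 of 5. Most of the Mueller glia sum was Glul, with group means of 107 to 136 CPM, and Slc1a3 came next at 8.18 to 21.6 CPM. Best1, at 10.5 and 8.16 CPM, was most of the pigment epithelium sum in phagocytic and non-phagocytic wild-type cells. Fewer cells of a type and less RNA per cell cannot be told apart in such bulk samples.

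On chromosome 7 of GRCm38 (mm10), annotated by GENCODE M21, all 4 genes lie on the minus strand. Apoe (ENSMUSG00000002985.16) spans 19696109 to 19699188 with 11 annotated transcripts. Apoc1 (19689481 to 19692660, 4 transcripts) starts 3448 bp beyond the 3′ end of Apoe, Apoc4 (19678083 to 19681479, 2 transcripts) 14629 bp and Apoc2 (19671579 to 19677941, 3 transcripts) 18167 bp beyond it. Of the 20 transcripts, 13 held at least 1 read on average in a group, 7 of them from Apoe. Apart from 1 Apoc4 transcript described with its gene, no transcript of the 4 genes that held reads at this level shared any run of 31 bases with a gene outside the cluster's own readthrough gene.

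Exon 3 and exon 4 of Apoe-206, the longest Apoe transcript, are 169 and 995 bp long and are parted by intron 3 of 375 bp (19697104 to 19697478). Apoe-211 is annotated as a retained intron transcript, a single block of 897 bases (19696735 to 19697631) that runs from exon 3 through all 375 bases of intron 3 into exon 4. It is shown because it held a larger share of the Apoe reads in Apoe -/- than in wild-type cells. The spliced junction and both ends of the retained intron are shown in the direction of transcription, 30 bases on each side, with intronic bases in capitals (chr7:19697479-19697508 joined to chr7:19697074-19697103, chr7:19697449-19697508 and chr7:19697074-19697133, minus strand).
Apoe-206 exon 3 to exon 4: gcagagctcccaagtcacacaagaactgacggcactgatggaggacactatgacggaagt
Apoe-211 exon 3 to intron 3: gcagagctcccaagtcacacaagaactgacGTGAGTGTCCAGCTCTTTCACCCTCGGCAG
Apoe-211 intron 3 to exon 4: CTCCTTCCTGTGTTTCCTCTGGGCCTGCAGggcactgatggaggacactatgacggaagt

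Apoc4 has the same pair of forms. Apoc4-201 is spliced from 3 exons into 538 bases, whereas Apoc4-202, a retained intron transcript of 2096 bases (19679306 to 19681401), has 1999 of its bases in intron 1. These junctions are shown because nearly all Apoc4 reads were placed on the unspliced form (chr7:19681305-19681334 joined to chr7:19678713-19678742, and chr7:19681275-19681334, minus strand, intronic bases in capitals).
Apoc4-201 exon 1 to exon 2: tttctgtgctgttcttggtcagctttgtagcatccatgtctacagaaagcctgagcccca
Apoc4-202 exon 1 to intron 1: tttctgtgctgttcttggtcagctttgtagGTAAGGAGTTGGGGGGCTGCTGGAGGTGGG

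In each pair the first 30 bases are shared, and the intron opens with GT, the letters of a splice donor. Intron 3 of Apoe likewise closes with AG.

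The 4 genes differed widely in level. On TPM, which is scaled by length and can be set side by side between genes, Apoe averaged 15.9 ± 9.96 in phagocytic and 8.08 ± 1.81 in non-phagocytic Apoe -/- cells, against 2533 ± 1972 in phagocytic and 1395 ± 718 in non-phagocytic wild-type cells (SD, n = 6, 6, 5 and 5). By mean TPM Apoe ranked 4539 and 6803 among 32409 genes with a read in phagocytic and non-phagocytic Apoe -/- cells, and 32 and 56 in the matching wild-type cells. Apoc2 averaged 7.77 ± 8.77 and 21.6 ± 13.5 TPM in phagocytic and non-phagocytic Apoe -/- cells, against 169 ± 86.4 and 64.5 ± 55.1 TPM in phagocytic and non-phagocytic wild-type cells. Apoc2 thus stood second to Apoe in wild-type cells, at 2.90% to 22.9% of the Apoe TPM of the same phagocytic library and 0.274% to 15.5% in non-phagocytic libraries. Apoc4 averaged 20.97 ± 5.67 and 17.9 ± 7.73 TPM in phagocytic and non-phagocytic Apoe -/- cells, against 11.1 ± 5.46 and 12.8 ± 3.17 TPM in phagocytic and non-phagocytic wild-type cells. Apoc1 stayed between 0 and 7.85 TPM in every library.

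**Figure D1:**
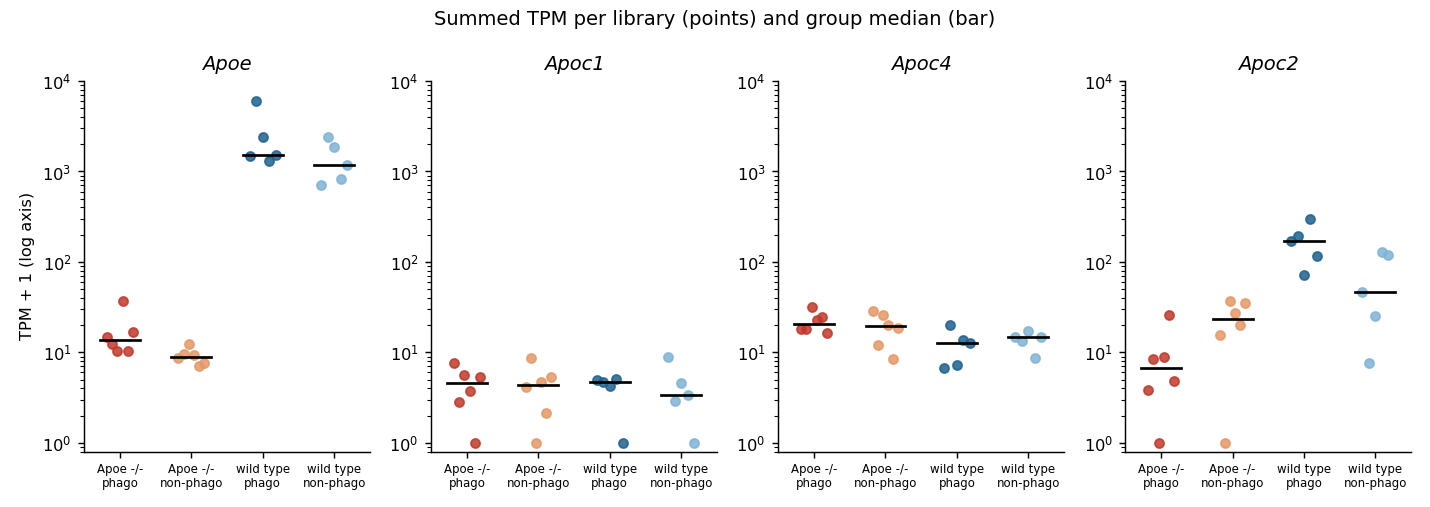
Summed TPM of Apoe, Apoc1, Apoc4 and Apoc2 in each library, as TPM + 1 on a log axis, with points for libraries and bars for group medians. All Apoe -/- libraries lie below all wild-type libraries for Apoe, and phagocytic Apoe -/- libraries lie below phagocytic wild-type libraries for Apoc2, whereas the groups overlap for Apoc1 and Apoc4.

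Apoe is the gene targeted in the knockout, and its level checks the genotype labels. In phagocytic Apoe -/- libraries 1 to 6 Apoe had 51, 31, 16, 46, 11 and 25 estimated reads, and in phagocytic wild-type libraries 1 to 5 it had 3568, 15991, 4998, 3079 and 3114. Non-phagocytic Apoe -/- libraries had 13, 21, 26, 16, 20 and 23 reads, against 1233, 4289, 3375, 1671 and 2831 in non-phagocytic wild-type libraries. No Apoe -/- library came near a wild-type library, so each library matched its genotype label, and no Apoe -/- library was at 0. Groups that did not overlap, lower in Apoe -/-, were found for 0.491% of tested genes in phagocytic and 0.193% in non-phagocytic cells.

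The mean Apoe CPM of Apoe -/- cells was 0.771% of the wild-type mean in phagocytic cells (17.6 ± 9.56 against 2276 ± 1639 CPM) and 0.886% in non-phagocytic cells (10.4 ± 4.24 against 1173 ± 299.8 CPM). In edgeR's quasi-likelihood test over 12415 genes the log2 fold change was -7.03 ± 0.43 (SE) in phagocytic cells (Benjamini-Hochberg adjusted p = 2.77e-11) and -6.86 ± 0.43 in non-phagocytic cells (edgeR, Benjamini-Hochberg adjusted p = 5.47e-11). Apoe had the smallest p in both comparisons. The genotype difference was of like size in both fractions, with a difference of -0.17 ± 0.53 between them and a 95% interval of -1.26 to 0.91 (edgeR, Benjamini-Hochberg adjusted p = 1.00). That difference changed sign to 0.37 without wild-type phagocytic library 2 and to 0.03 without Apoe -/- non-phagocytic library 2.

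Phagocytosis was set against no phagocytosis within each genotype. Phagocytic wild-type libraries held 1393, 5145, 2143, 1317 and 1383 Apoe CPM, against 869, 1604, 1258, 906 and 1227 CPM in non-phagocytic wild-type libraries. The groups overlapped, and library 2 of the phagocytic set stood far above the rest. The log2 fold change was 0.96 ± 0.35, with a 95% interval of 0.24 to 1.68, and did not pass after adjustment (edgeR, Benjamini-Hochberg adjusted p = 0.433). Without phagocytic library 2 it was 0.41. In Apoe -/- cells the residual reads gave 0.78 ± 0.38 (edgeR, Benjamini-Hochberg adjusted p = 0.506), from 11 to 51 reads per phagocytic and 13 to 26 reads per non-phagocytic library. Markers of border macrophages, which also express Apoe, summed to 80.8 to 221 CPM in phagocytic Apoe -/- cells and 13.5 to 55.5 CPM in non-phagocytic ones. In wild-type cells they summed to 181 to 543 CPM (phagocytic) and 42.0 to 77.5 CPM (non-phagocytic), with 5 to 7 of 7 genes detected. Their part in the Apoe level was not tested.

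The Apoe reads of wild-type cells lay on spliced transcripts. Apoe-209 held 68.8% of them on average in phagocytic and 69.1% in non-phagocytic wild-type libraries, Apoe-201 16.4% and 14.9%, Apoe-202 11.9% and 12.0%, and Apoe-206 2.43% and 3.10%. Apoe-209, Apoe-201 and Apoe-206 share most of exons 2 to 4 and differ in their 5′ part. Apoe-209 and Apoe-201 have the same 3′ end, and Apoe-206 runs further. Apoe-202 is annotated as a processed transcript of 5 exons, and all its 728 bases lie within the exons of Apoe-206. Salmon divides reads that fit several of these transcripts, so the shares are estimates. Apoe-211, the retained intron form, held 0.137% and 0.167%.

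The residual Apoe reads of the knockout were spread differently. Summed over the 6 phagocytic Apoe -/- libraries, Apoe-211 held 29.2% of them, Apoe-209 28.1%, Apoe-205 18.8%, Apoe-206 13.3% and Apoe-201 9.78%. Over the 6 non-phagocytic Apoe -/- libraries Apoe-209 held 45.7%, Apoe-211 18.6%, Apoe-205 16.1%, Apoe-206 15.7% and Apoe-207 3.86%. Apoe-202, which held over 11% of the reads in the mean wild-type library, had no reads in any of the 12 Apoe -/- libraries. Its share was lower in both fractions without overlap (two-sided exact permutation test, p = 0.00216, Benjamini-Hochberg adjusted p = 0.0152 in each). Apoe-201 likewise had none in the non-phagocytic Apoe -/- libraries (exact permutation, Benjamini-Hochberg adjusted p = 0.0424), a call lost in 10 of 11 cases with 1 library left out.

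Apoe-211 was the form found most regularly. It held 23.2%, 38.4%, 14.7%, 28.5%, 30.7% and 40.3% of the Apoe reads in phagocytic Apoe -/- libraries 1 to 6, against 0.469%, 0.103%, 0.0243%, 0.0482% and 0.0389% in phagocytic wild-type libraries. The groups did not overlap, and the mean share was 29.3 ± 9.56% against 0.137 ± 0.188% (two-sided exact permutation test, p = 0.00433, Benjamini-Hochberg adjusted p = 0.0202 over 7 transcripts in 2 fractions). In non-phagocytic Apoe -/- libraries the share was 0%, 23.5%, 19.2%, 17.7%, 30.3% and 14.7%, against 0.0283% to 0.336% in non-phagocytic wild-type libraries. All but library 1, whose 13 reads were all placed on Apoe-209, lay above the wild-type range (means of 17.6 ± 10.2% and 0.167 ± 0.148%, exact permutation p = 0.0152, Benjamini-Hochberg adjusted p = 0.0424). That call was lost in 10 of the 11 cases where 1 library was left out.

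The level of Apoe-211, as opposed to its share, was 3.26, 6.42, 1.31, 9.92, 3.05 and 8.42 CPM in phagocytic Apoe -/- libraries, against 6.53, 5.32, 0.521, 0.635 and 0.537 CPM in phagocytic wild-type libraries. The groups overlapped, with means of 5.40 ± 3.39 and 2.71 ± 2.97 CPM (two-sided exact permutation p = 0.199, Benjamini-Hochberg adjusted p = 0.428 over 56 tests of single transcripts). In non-phagocytic cells its mean was 2.05 ± 1.63 CPM in Apoe -/- and 1.80 ± 1.59 CPM in wild-type libraries (exact permutation p = 0.797, Benjamini-Hochberg adjusted p = 1.00), and on TPM that difference changed sign to -0.39. These are 0 to 16.7 reads per library, and no change in the level of this form was detected. The share is taken of all Apoe reads, which are far fewer in the knockout. A form whose level stays the same thus gains share, and the share tests do not show a rise of Apoe-211.

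By contrast, the mean level of Apoe-209 in Apoe -/- cells was 0.231% of wild type in phagocytic and 0.593% in non-phagocytic cells (3.57 ± 4.07 against 1546 ± 1109 CPM, and 4.82 ± 4.02 against 813 ± 243 CPM). That of Apoe-206 was 4.62% and 4.32% of wild type (2.28 ± 2.12 against 49.4 ± 22.1 CPM, and 1.55 ± 2.38 against 35.8 ± 15.1 CPM). Apoe-202, Apoe-206 and Apoe-209 were lower in Apoe -/- cells of both fractions without overlap between the groups, and Apoe-201 in phagocytic cells (two-sided exact permutation tests, each p = 0.00216, the smallest these groups allow, Benjamini-Hochberg adjusted p = 0.0135). How many of all transcripts separated the genotypes in this way is not given here.

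Reads given to spliced forms in the knockout moved between transcripts from library to library. Apoe-209 held 64.4%, 32.8%, 0%, 0%, 69.3% and 0% of the Apoe reads in phagocytic Apoe -/- libraries 1 to 6, and 100%, 48.4%, 80.8%, 63.8%, 0% and 0% in the non-phagocytic ones. Apoe-205, whose first exon starts upstream of exon 2 and holds 131 bases found in no other Apoe transcript, had reads in 6 Apoe -/- libraries, 5 of which had none on Apoe-209. Its level was 3.97 ± 4.49 CPM in phagocytic Apoe -/- and 1.17 ± 2.62 CPM in phagocytic wild-type libraries (exact permutation p = 0.273, Benjamini-Hochberg adjusted p = 0.509). In non-phagocytic cells the direction was the opposite, with 1.54 ± 1.70 CPM in Apoe -/- and 5.96 ± 9.15 CPM in wild-type libraries (exact permutation p = 0.262, Benjamini-Hochberg adjusted p = 0.506). Apoe-201 had reads in a single Apoe -/- library, phagocytic library 4, which also had the highest Apoe level of the 12 at 34.9 CPM. The files give no read positions, so it was not tested whether reads placed on Apoe-211 lie in intron 3 or in the 522 bases it shares with exons 3 and 4.

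**Figure D2:**
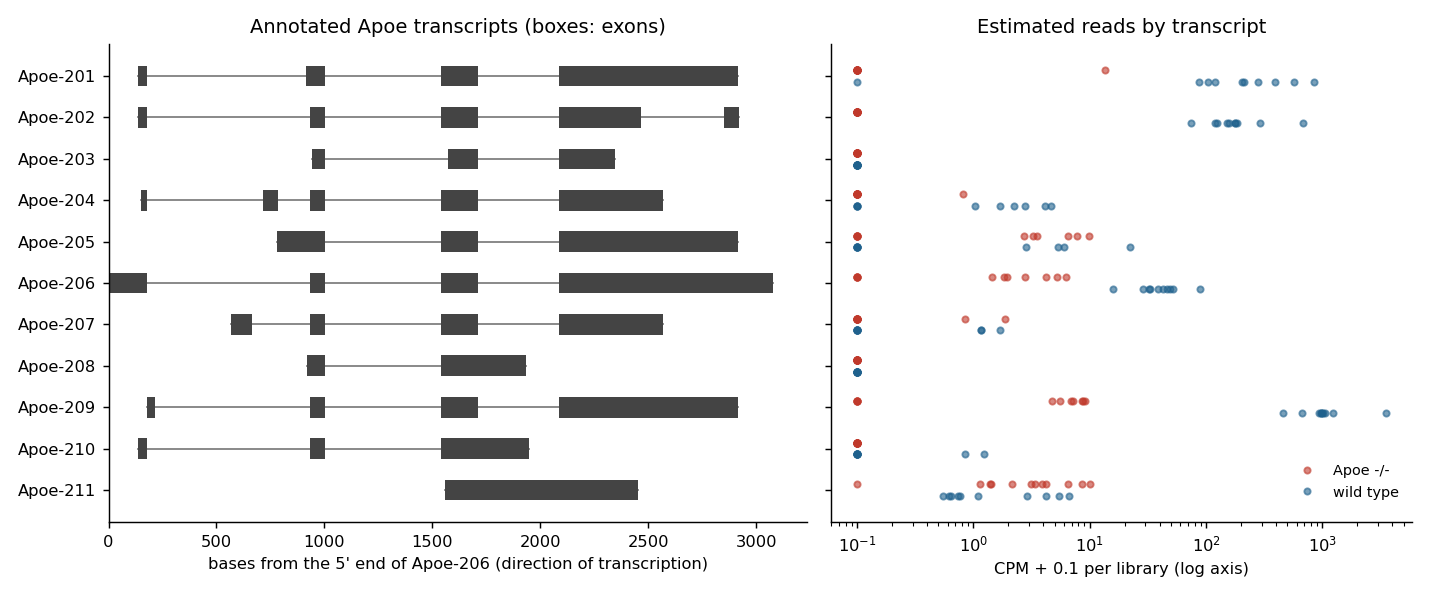
The 11 annotated Apoe transcripts with exons as boxes (left, bases from the 5′ end of Apoe-206) and the CPM + 0.1 of each transcript in each library on a log axis (right), Apoe -/- above wild type, with 0 CPM plotted at the left edge. Apoe-209, Apoe-201, Apoe-202 and Apoe-206 are far lower in Apoe -/- libraries, whereas the points of Apoe-211 overlap between the genotypes.

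Apoc2 was the only other gene of the cluster that passed the test between genotypes. Its level was 1.38, 4.86, 0, 3.79, 13.5 and 2.51 CPM in phagocytic Apoe -/- libraries 1 to 6, against 83.2, 88.5, 32.2, 152 and 54.6 CPM in phagocytic wild-type libraries 1 to 5. The groups did not overlap, which held, lower in Apoe -/-, for 0.491% of tested genes. Apoc2 fell by 4.39 ± 0.77 on the log2 scale, 21-fold, with a 95% interval of -5.97 to -2.82 (edgeR, Benjamini-Hochberg adjusted p = 0.0152). Apoe was called lower too, but it is the gene targeted in the knockout. Of the other 2 tested genes of the cluster Apoc2 was called lower and Apoc4 was not called. In this comparison 0.0242% of all tested genes were called lower and 0.0322% were called in either direction. The Apoc2 call was lost, with the direction kept, without wild-type library 4 (-4.04, adjusted p = 0.0727) or without Apoe -/- library 2, 4 or 6 (edgeR, Benjamini-Hochberg adjusted p = 0.0561, 0.0607 and 0.0700).

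In non-phagocytic cells Apoc2 had 5.44, 0, 17.8, 11.3, 15.7 and 15.0 CPM in Apoe -/- libraries, against 28.2, 2.24, 8.57, 71.6 and 62.8 CPM in wild-type libraries. The groups overlapped, and the log2 fold change of -1.61 ± 0.67 did not pass (edgeR, Benjamini-Hochberg adjusted p = 0.999). Only Apoe, the targeted gene, was called among the 3 tested genes of the cluster here, where 0.0161% of tested genes were lower. Phagocytic over non-phagocytic cells gave -1.53 ± 0.76 in Apoe -/- cells (edgeR, Benjamini-Hochberg adjusted p = 0.521) and 1.25 ± 0.67 in wild-type cells (adjusted p = 0.694), so neither passed. The difference between these responses, for which 0% of tested genes were called, was -2.78 ± 1.01, with a 95% interval of -4.86 to -0.70, and did not pass (edgeR, Benjamini-Hochberg adjusted p = 1.00). With no filter on low counts it did (-2.84, adjusted p = 0.0211).

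The order of Apoc2 levels was phagocytic wild type, non-phagocytic wild type, non-phagocytic Apoe -/- and phagocytic Apoe -/-. Each neighbouring pair in that order overlapped, and none of these pairs passed the edgeR test. For Apoe the order was phagocytic wild type, non-phagocytic wild type, phagocytic Apoe -/- and non-phagocytic Apoe -/-, with a clear gap only between the genotypes.

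**Figure D3:**
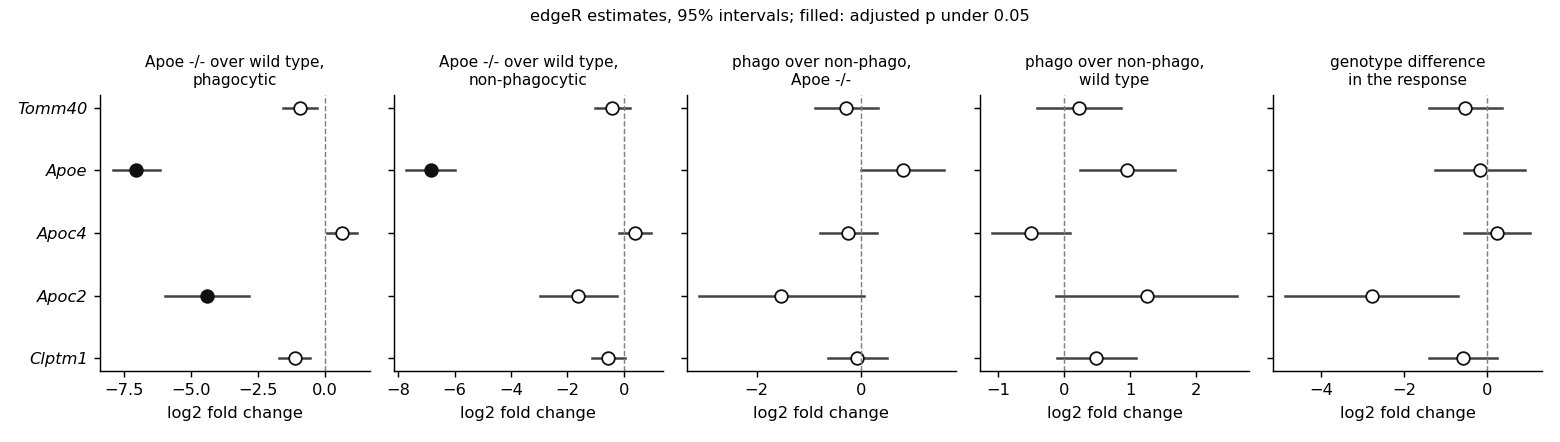
Log2 fold changes with 95% intervals from edgeR for Apoe, Apoc4, Apoc2 and the flanking genes Tomm40 and Clptm1 in 5 comparisons, in chromosome order with a separate axis for each comparison, filled where the adjusted p was under 0.05. Apoc1 did not pass the filter on low counts. The filled points are Apoe in both genotype comparisons and Apoc2 in phagocytic cells.

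Monocyte markers moved with Apoc2 in wild-type cells. The summed level of 5 markers, of which 4 or 5 had reads, was 402, 204.9, 99.0, 844 and 118 CPM in phagocytic wild-type libraries 1 to 5 and 276, 53.8, 60.0, 1062 and 300 CPM in non-phagocytic ones. In both fractions library 4 was highest for the markers and for Apoc2, and the non-phagocytic libraries ranked alike on both. This was not particular to monocyte markers. Library 4 was also lowest for the summed microglial markers, at 5589 CPM in the phagocytic and 5460 CPM in the non-phagocytic fraction. It was highest for astrocyte markers, at 70.6 and 77.0 CPM. The non-phagocytic wild-type libraries ranked in reverse order on microglial markers and Apoc2. In Apoe -/- libraries the monocyte markers summed to 60.1 to 270 CPM in phagocytic and 87.4 to 203 CPM in non-phagocytic cells. There the ranks differed, as library 1 of each fraction had rank 1 for the markers and rank 5 for Apoc2. Without wild-type pool 4 in both fractions the Apoc2 difference in phagocytic cells was -4.04 (edgeR, Benjamini-Hochberg adjusted p = 0.0547). The sort took Ly6c-, Fcrls+ cells, and Ly6c2, which is among the 5 markers, had reads in all 22 libraries, at 0.746 to 72.7 CPM. The part of monocytes, or of other differences between the pools, in the Apoc2 level was not tested.

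**Figure D4:**
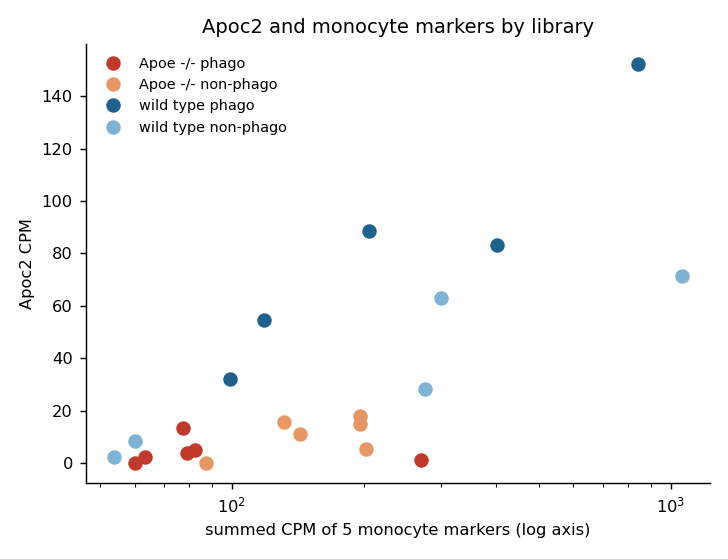
Apoc2 CPM against the summed CPM of 5 monocyte markers (log axis), a point for each of the 22 libraries in 4 colours by group. Wild-type library 4 is highest on both measures in each fraction, and phagocytic Apoe -/- libraries stay at or below 13.5 CPM of Apoc2.

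The genotype difference lay in the 4-exon transcript Apoc2-201 (631 bases). It averaged 3.54 ± 5.10 CPM in phagocytic Apoe -/- and 80.8 ± 44.6 CPM in phagocytic wild-type libraries without overlap (two-sided exact permutation p = 0.00216, Benjamini-Hochberg adjusted p = 0.0135 over the 56 tests of single transcripts, which were added after seeing the data). How many of all transcripts separated these groups is not given here. It held 98.4% of the Apoc2 reads of phagocytic and 89.1% of those of non-phagocytic wild-type cells, summed over libraries. In Apoe -/- cells it held 75.8% in phagocytic and 47.2% in non-phagocytic libraries. Most of the rest lay on Apoc2-202, which starts at another first exon of 86 bases. Apoc2-202 held all Apoc2 reads of Apoe -/- phagocytic library 2 (9 reads) and non-phagocytic library 1 (10 reads). It held 84.9% and 81.3% of 25 and 49.0 reads in non-phagocytic libraries 5 and 6, against at most 14.1% in any wild-type library. All bases of Apoc2-201 also occur in other Apoc2 transcripts, so these shares are estimates from few reads. The level of Apoc2-202 was 0.809 ± 1.98 CPM in phagocytic Apoe -/- and 1.37 ± 2.12 CPM in phagocytic wild-type cells, and in the non-phagocytic fraction 5.16 ± 6.26 CPM in Apoe -/- and 3.57 ± 4.51 CPM in wild-type cells. Neither difference passed the exact permutation test (Benjamini-Hochberg adjusted p = 0.929 and 0.893). Apoc2-203 had reads in 1 library, non-phagocytic Apoe -/- library 6.

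Gm44805 is an annotated readthrough gene that joins the first exon of Apoc4 to exons of Apoc2. It held 16.6 and 5.68 reads in phagocytic Apoe -/- libraries 1 and 3, 35.9 reads in non-phagocytic Apoe -/- library 6 and 6.22 reads in phagocytic wild-type library 2, and none in the other 18. With these reads added to Apoc2, the phagocytic difference was -3.88 (edgeR, Benjamini-Hochberg adjusted p = 0.0195).

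Apoc4 stood higher in Apoe -/- cells in both fractions without passing the test. Its level was 18.2, 37.2, 24.5, 28.8, 40.5 and 25.1 CPM in phagocytic Apoe -/- libraries, against 11.7, 23.2, 12.9, 24.4 and 20.4 CPM in phagocytic wild-type libraries. All but library 1 of the Apoe -/- set lay above every wild-type library. The log2 fold change was 0.64 ± 0.28 in phagocytic cells (edgeR, Benjamini-Hochberg adjusted p = 0.740) and 0.39 ± 0.27 in non-phagocytic cells (adjusted p = 0.999). Phagocytic over non-phagocytic cells gave -0.25 ± 0.26 in Apoe -/- (edgeR, Benjamini-Hochberg adjusted p = 0.841) and -0.50 ± 0.29 in wild-type cells (adjusted p = 0.742). The Apoe -/- value changed sign on length-scaled counts (0.21) and on TPM (0.30). The difference between the responses was 0.25 ± 0.39 (edgeR, Benjamini-Hochberg adjusted p = 1.00).

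Nearly all Apoc4 reads were placed on the retained intron transcript Apoc4-202, whose junction is printed with those of Apoe. It held 82.7% and 93.7% of them in phagocytic and non-phagocytic Apoe -/- cells, and 94.1% and 100% in phagocytic and non-phagocytic wild-type cells, summed over libraries. It is also the longer form. On TPM, which is scaled by length, Apoc4-201 averaged 10.9 ± 5.23 and Apoc4-202 10.1 ± 3.28 in phagocytic Apoe -/- cells, against 2.66 ± 3.64 and 8.43 ± 2.28 in phagocytic wild-type cells. Per library Apoc4-201 held 35.0% to 69.5% of the Apoc4 TPM in phagocytic Apoe -/- cells and 0% to 46.4% in phagocytic wild-type cells. Of the 2066 runs of 31 bases in Apoc4-202, 241 (11.7%) also occur in transcripts of 2754 other genes, so reads from elsewhere can be counted there. The level of Apoc4-202 was 24.5 ± 8.91 CPM in phagocytic Apoe -/- and 17.6 ± 5.07 CPM in phagocytic wild-type cells, and in the non-phagocytic fraction 32.4 ± 10.5 CPM in Apoe -/- and 26.4 ± 8.06 CPM in wild-type cells, with overlap (exact permutation, Benjamini-Hochberg adjusted p = 0.428 and 0.594). Transcripts annotated as retained introns took 4.97% to 8.47% of all reads in these libraries.

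The spliced Apoc4-201 shares no run of 31 bases with any other gene outside the cluster. It was found in all 6 phagocytic Apoe -/- libraries, at 3.60 to 7.14 CPM, and in 3 of 5 phagocytic wild-type libraries, at 0 to 3.22 CPM. The means were 4.56 ± 1.299 and 0.992 ± 1.32 CPM, without overlap (two-sided exact permutation p = 0.00216, Benjamini-Hochberg adjusted p = 0.0135). On TPM the adjusted p of the same exact permutation test was 0.0707. These levels rest on 50.6 reads over 6 libraries and 14 reads over 5 libraries. The adjustment covers only the 56 tests of single transcripts of the cluster, which were added after seeing the data. The share of all transcripts that separated these groups is not given here, so the lack of overlap has no background beside it. Non-phagocytic Apoe -/- libraries had 1.98 ± 1.92 CPM, and all 5 non-phagocytic wild-type libraries were at 0 (exact permutation p = 0.0606, Benjamini-Hochberg adjusted p = 0.189).

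**Figure D5:**
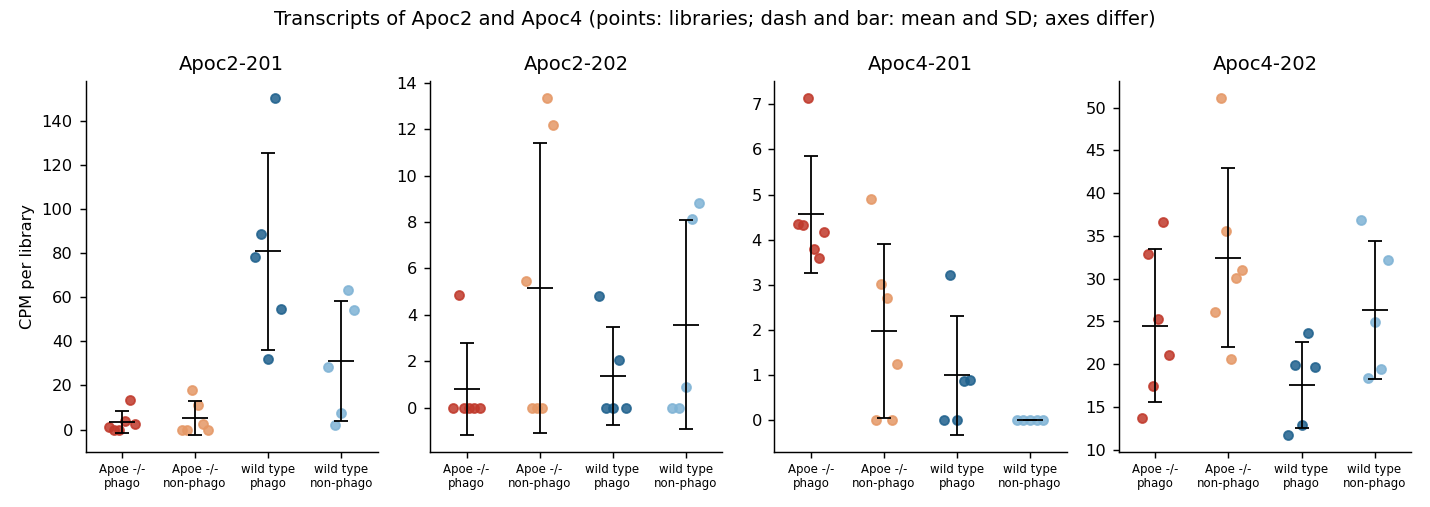
CPM of Apoc2-201, Apoc2-202, Apoc4-201 and Apoc4-202 in each library (points) with the group mean and SD (dash and bar), each panel with its own axis. Phagocytic Apoe -/- libraries lie below phagocytic wild-type libraries for Apoc2-201 and above them for Apoc4-201, and the groups overlap for Apoc2-202 and Apoc4-202.

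Apoc1 was near the limit of detection, with 0 to 7 reads in a library, and did not pass the filter on low counts. It averaged 3.34 ± 2.32 and 3.33 ± 2.68 TPM in phagocytic and non-phagocytic Apoe -/- cells, against 3.01 ± 1.72 and 3.15 ± 2.93 TPM in phagocytic and non-phagocytic wild-type cells. None of 4 comparisons showed a difference at this depth (two-sided exact permutation tests, p of 0.801 to 1, Benjamini-Hochberg adjusted p = 1 in each). Its reads lay mostly on the 4-exon transcript Apoc1-201.

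The flanking genes were read for whether the cluster's surroundings moved too. Tomm40, an outer mitochondrial membrane channel gene 2124 bp upstream of Apoe, averaged 64.9 ± 39.2 CPM in phagocytic Apoe -/- and 124 ± 15.1 CPM in phagocytic wild-type cells, with a log2 fold change of -0.92 ± 0.30 (edgeR, Benjamini-Hochberg adjusted p = 0.493). Clptm1, a membrane protein gene 31075 bp downstream of Apoe, averaged 57.0 ± 26.0 CPM and 125 ± 24.7 CPM in the same groups, with -1.12 ± 0.28 (edgeR, Benjamini-Hochberg adjusted p = 0.288). Both overlapped between the groups. In non-phagocytic cells the values were -0.40 ± 0.30 for Tomm40 and -0.55 ± 0.28 for Clptm1 (edgeR, Benjamini-Hochberg adjusted p = 0.999 for each). Of 5 tested neighbours 0 were called between genotypes in either fraction by the edgeR test, with medians of -0.34 in phagocytic and -0.40 in non-phagocytic cells, against -0.00402 and -0.00212 over all tested genes. Over all tested genes 0.0322% and 0.0161% were called in these comparisons. At an unadjusted p under 0.05 edgeR counted 2 of 5 in phagocytic and 1 of 5 in non-phagocytic cells, against 6.62% and 3.80% of all tested genes, and 1 was called in phagocytic cells without Apoe -/- library 1 or with no filter. Nectin2 and Relb averaged 30.05 and 38.6 CPM in phagocytic Apoe -/- and 29.8 and 49.0 CPM in phagocytic wild-type cells.

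Other apolipoprotein genes were nearly silent. Of 20 on the list 2 passed the filter, namely Apobec1, the RNA-editing enzyme of Apob mRNA, and Clu, which encodes the lipid-binding chaperone clusterin, and neither was called in a comparison. Apobec1 averaged 97.6 ± 25.5 CPM in phagocytic Apoe -/- and 116 ± 46.2 CPM in phagocytic wild-type cells. Clu averaged 5.80 ± 4.78 and 1.19 ± 1.53 CPM in the same groups. Apol7c and Apol7e, next in level, did not pass the filter.

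Receptor and uptake genes were abundant, and 0 of 15 tested were called by edgeR in any comparison, where 0% to 0.467% of all tested genes were called. At an unadjusted p under 0.05 there were 3 of 15 in phagocytic over non-phagocytic Apoe -/- cells, against 9.93% of all tested genes, 4 in the same comparison of wild-type cells, against 7.74%, and 0 or 1 in the others. In phagocytic over non-phagocytic Apoe -/- cells, 1 was called by DESeq2, without phagocytic library 3 or without non-phagocytic library 5. Lrp1, the large LDL-family receptor of microglia, averaged 409 ± 108 CPM in phagocytic Apoe -/- and 408 ± 66.5 CPM in phagocytic wild-type cells. Trem2, a lipid-sensing microglial receptor, averaged 322 ± 155 and 363 ± 149 CPM, the scavenger receptor gene Cd36 238 ± 90.0 and 287 ± 140 CPM, and the receptor chaperone gene Lrpap1 218 ± 40.4 and 238 ± 22.2 CPM in the same groups. The median log2 fold change of the list was -0.17 between genotypes in phagocytic cells.

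Of 11 tested genes that load, hydrolyse or pass on lipid, 3 rose in phagocytic over non-phagocytic Apoe -/- cells, where 0.403% of tested genes were called higher and 0.467% in either direction, and 0 fell. Abca1, the exporter that loads cholesterol onto apolipoproteins, averaged 286 ± 159 CPM in phagocytic Apoe -/- cells, against 71.0 ± 39.6 CPM in the non-phagocytic ones, 2.00 ± 0.38 on the log2 scale (edgeR, Benjamini-Hochberg adjusted p = 0.0125). Abcg1, which exports sterol to formed particles, averaged 189 ± 112 and 50.5 ± 22.8 CPM, 1.88 ± 0.41 (edgeR, Benjamini-Hochberg adjusted p = 0.0272). Npc2, which binds cholesterol in lysosomes, averaged 696 ± 164 and 408 ± 61.6 CPM, 0.77 ± 0.17 (edgeR, Benjamini-Hochberg adjusted p = 0.0333). The median of the list was 0.70, with 11 of 11 above 0, against -0.0231 over all tested genes. Without phagocytic library 5, or without non-phagocytic libraries 2 and 5 with their high satellite-like share, 0 of the 11 were called, at medians of 0.73 and 0.66, and limma on TPM also called 0. Without phagocytic library 4 or 6, or non-phagocytic library 1, 2 or 6, 1 was called.

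In wild-type cells 0 of these 11 genes were called by edgeR, where 0.193% of tested genes were called higher and 0.209% in either direction. DESeq2 called 3 of them, and 103 genes in all. At an unadjusted edgeR p under 0.05 there were 6 of 11, against 7.74% of all tested genes. Phagocytic wild-type libraries averaged 145 ± 53.5 CPM of Abca1, against 39.9 ± 12.2 CPM in the non-phagocytic ones, 1.85 ± 0.42 (edgeR, Benjamini-Hochberg adjusted p = 0.0568). The difference between the genotypes in this response was 0.15 ± 0.55 for Abca1 (95% interval -0.99 to 1.29) and 1.10 ± 0.60 for Abcg1 (-0.12 to 2.32), so no difference in response was shown for either of them (edgeR, Benjamini-Hochberg adjusted p = 1.00 for each). The cholesterol ester synthase gene Soat1 averaged 196 ± 52.4 CPM in phagocytic Apoe -/- cells, against 139 ± 31.2 CPM in the non-phagocytic ones, and Lpl, the lipase that apolipoprotein C-II activates, 405 ± 168 and 347 ± 81.7 CPM. Neither was called.

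Among transcription factors known to act on the cluster or on macrophage lipid genes, 0 of 12 tested were called by edgeR in any comparison, where 0% to 0.467% of all tested genes were called. Phagocytic over non-phagocytic cells gave 3 of 12 in Apoe -/- and 4 of 12 in wild-type cells at an unadjusted p under 0.05, against 9.93% and 7.74% of all tested genes, and the other comparisons gave 0 or 1. Between genotypes in phagocytic cells 1 was called by DESeq2, with no filter or without Apoe -/- library 1. Spi1, the macrophage factor PU.1, averaged 73.8 ± 34.0 CPM in phagocytic Apoe -/- and 180 ± 40.3 CPM in phagocytic wild-type cells, -1.28 ± 0.26 on the log2 scale (edgeR, Benjamini-Hochberg adjusted p = 0.0785). It was chosen for its level, as were the sterol regulator gene Srebf1 at 65.4 ± 8.16 and 58.1 ± 13.2 CPM and Nr1h2, the LXR-beta gene, at 41.5 ± 7.16 and 55.9 ± 17.4 CPM in the same groups. The median log2 fold change of the list was -0.20.

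Genes with patterns most like the cluster's were sought among the 12414 others tested, by Pearson correlation of log2 CPM. Over the 10 wild-type libraries those most like Apoe were Dhrs7 (r = 0.93), Ech1 (0.92), Dffa (0.91), Cyb561d2 (0.90) and Slc25a1 (0.90), and without phagocytic library 2, which had the most Apoe, their r was 0.80, 0.88, 0.80, 0.79 and 0.83. Without that library the 5 most like Apoe were 5 others, Plxnb2, Kat7, Creg1 and Ogfod2 (0.93 each) and Zik1 (0.92), so the list rests on 1 library. Over all 22 libraries, which include the genotype difference, those most like Apoc2 were Adgre5 (0.82), Msl2, Vim, S100a10 and Cers6 (0.76 each). Those most like Apoc4 were Phkg1 (0.79), Gm11346, Eef1akmt3 and Klf2 (0.78 each) and Camk2n1 (0.77). Within wild-type libraries Apoe had an r of 0.10 with Apoc2 and -0.26 with Apoc4, and without phagocytic library 2 these were -0.23 and -0.65. All these values share libraries, depth and scaling and are descriptive.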

How the data were processed

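Each of the 22 SMART-Seq2 libraries has 1 table by the authors which, per the file headers, gives every transcript an estimated count and a TPM (scaled by effective length to the same total per library). Salmon 1.4.0, R 4.0.3, DESeq2 1.30.1 and mm10 are named, without roles, per the submitters' processing notes. The transcript annotation, strand setting and read filters were not given in the sources used here. Transcripts were matched to GENCODE M21 (GRCm38) with version for 116072 of 116248 identifiers, and the other 176, with 0.118% to 0.262% of reads, were left out. A gene table of the authors was read only for its title line (method and time).

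Estimated counts were summed per gene, rounded and tested with edgeR 4.0.16 in R 4.3.3 (quasi-likelihood, TMM, filterByExpr by group, 1 fit of 4 groups), with Benjamini-Hochberg adjustment over 12415 genes and a threshold of 0.05. The 5 comparisons were Apoe -/- against wild type in each fraction, phagocytic against non-phagocytic in each genotype, and their difference. CPM uses TMM-adjusted library sizes. SE is the log2 fold change divided by the root of F. Transcript shares, Apoc1 (under the filter) and single transcripts were tested with two-sided exact permutation tests. The tests of single transcripts were added after seeing the data. The edgeR step was tested on simulated data. Named were the 4 genes, their transcripts with at least 1 read on average in a group, all called genes and the 4 of highest CPM of each list, and Tomm40 and Clptm1, except for 1 gene that is not reported here. Members and lists were chosen with earlier results of these data known. Alternatives were RLE scaling, no filter, length-scaled counts, no satellite-like genes, only the groups compared, DESeq2 1.42.0, limma 3.58.1 on log2(TPM + 1), a replicate block and leaving out libraries. Counts are not of unique molecules, and the precision is set by 1131240 to 3643670 reads per library.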

Additional observations from a re-analysis of the deposited data

Results flagged for a closer look

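Values of single libraries that stood apart from the rest of their group by Dixon's criterion are listed here, from 68 groups examined. Chance alone sets apart about 1 in 20 groups if values are normally distributed, which low counts are not. Where all other libraries of a group are at 0, any value above 0 is set apart. In wild-type phagocytic library 2, Apoe reached 5145 CPM, against 1317 to 2143 CPM in the other libraries of the group, with Apoe-209 at 3519 CPM and Apoe-206 at 87.9 CPM. The same library held 3.22 CPM of Apoc4-201. In Apoe -/- phagocytic library 5, Apoc2 stood at 13.5 CPM, all of it Apoc2-201 (13.5 CPM), against 0 to 4.86 CPM elsewhere in the group. Among the residual transcripts of the knockout, Apoe-201 had 13.3 CPM in Apoe -/- phagocytic library 4 and 0 in the other 5, Apoe-204 had 0.712 CPM in phagocytic library 2, and Apoe-206 had 6.12 CPM in non-phagocytic library 5. Apoe-205 had 5.86 CPM in wild-type phagocytic library 4 and 21.9 CPM in wild-type non-phagocytic library 1. Apoc2-202 had 4.86 CPM in Apoe -/- phagocytic library 2, and Apoc2-203 had 2.80 CPM in Apoe -/- non-phagocytic library 6. Apoc4-201 reached 7.14 CPM in Apoe -/- phagocytic library 3. Apoc1 and its transcript Apoc1-201 reached 5.04 CPM in Apoe -/- non-phagocytic library 2, Apoc1-201 reached 2.82 CPM in wild-type non-phagocytic library 1, and Apoc1 was at 0 in wild-type phagocytic library 5.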

How the results depend on the processing

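Of 669 alternative values of the main results, 588 kept their direction and side of the threshold or stayed within 1.5 times the count. The Apoe genotype differences and the Apoe-202 shares did so under every alternative run. The Apoc2 difference in phagocytic cells ran from -5.08 to -4.04 as single libraries were left out, and was -4.04 without wild-type pool 4. Signs that changed belonged to differences that had not passed. With length-scaled counts and with limma on TPM, Apoc4 in phagocytic over non-phagocytic Apoe -/- cells became 0.21 and 0.30. The Apoe difference between responses became 0.019 with limma on TPM, 0.17 without Apoe -/- non-phagocytic libraries 2 and 5, and ran from -0.47 to 0.37 with single libraries left out. Apoc1 on reads scaled to library totals gave -0.126 in phagocytic over non-phagocytic Apoe -/- cells. With single libraries left out, Apoc1 ran on TPM from -0.652 to 0.880 in that comparison, from -0.931 to 1.03 in its wild-type counterpart, from -0.425 to 0.996 between genotypes in phagocytic cells and from -0.695 to 1.35 in non-phagocytic cells. Apoe-211 CPM between genotypes in non-phagocytic cells was -0.391 on TPM and ran from -0.164 to 0.833. Shares of Apoe reads ran, in percentage points, from 14.8 to 20.9 for Apoe-211 and -18.7 to -10.6 for Apoe-201 in non-phagocytic cells, and from -16.4 to -7.52 for Apoe-201, -0.149 to 0.701 for Apoe-204 and -49.4 to -35.5 for Apoe-209 in phagocytic cells. Apoc2 in the difference between responses passed only with no filter (-2.84).

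Counts of all called genes moved more. They were 26 for phagocytic over non-phagocytic wild-type cells, 58 for the same in Apoe -/- cells, 4 and 2 between genotypes in phagocytic and non-phagocytic cells, and 0 for the difference, where edgeR gave 301 genes at an unadjusted p under 0.05. With no filter they were 122, 137, 96, 16 and 17, in the same order. DESeq2 gave 103, 168, 19 and, for the difference, 2. limma gave 15 in Apoe -/- cells and 7 between genotypes in phagocytic cells, where the fit of only the groups compared gave 2. Without Apoe -/- non-phagocytic libraries 2 and 5 the Apoe -/- count was 16. With single libraries left out the counts ran from 13 to 64, 18 to 89 and 3 to 23 for the first 3. The cause was not tested. With the replicate block the first 2 counts were 135 and 255. Between genotypes the block joined wild-type and Apoe -/- pools of the same number, which are different mice, so it pairs nothing real there. The count between genotypes in phagocytic cells was then 7. No call on the 4 genes changed. Same-numbered pools had correlations of 0.0402 to 0.423 in wild-type and 0.0626 to 0.214 in Apoe -/- cells, and 2 of 5 and 5 of 6 pools correlated best with their own number. Not every correlation was over 0.1, so the numbers were not taken to pair pools, although same-numbered pools were alike in Y-linked reads (Ddx3y and Eif2s3y at most 4.46 in both fractions of wild-type pool 5 and Apoe -/- pools 4 to 6, at least 51.6 in the others). By number, Apoe CPM was higher in the phagocytic pool in 3 of 6 Apoe -/- and 5 of 5 wild-type pairs, and with the replicate block the wild-type difference was 0.77 (edgeR, Benjamini-Hochberg adjusted p = 0.222). Depth limits Apoc1 and the residual Apoe transcripts, whose values rest on few reads per library.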
